A study of Homo sapiens with 10 samples.

Results

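The large histone gene cluster of human chromosome 6 was followed through the peak lists of a ChIP-seq series in 22RV1, an established line of human prostate cancer cells. Members were the protein-coding genes on chromosome 6 between 25.9 and 28.0 Mb (build hg38) whose symbols begin with H1-, H2AC, H2BC, H3C or H4C. The rule found 53 genes of the 20033 protein-coding genes placed on chromosomes 1-22, X and Y, and it used no measured value. They comprised 6 linker histone H1 genes, 11 H2A genes, 14 H2B genes, 10 H3 genes and 12 H4 genes. They lay in 3 groups along the chromosome, with 32 genes from 26017032 to 26285534, 5 genes from 27132316 to 27147562 and 16 genes from 27807479 to 27893891. The genes are short, with a median length of 487 bp, and 48 of the 53 spanned at most 1 kb.

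The series title concerns RB, the tumour suppressor encoded by RB1, and TRIM24, a chromatin reader and transcriptional co-regulator. The labels do not name the antibody, so the protein or mark behind the values is not known here. A list was analysed for each of 6 immunoprecipitated libraries, 1 per group. The siRNA pair was a control siRNA and an siRNA against RB1. The second pair was EV(245-255), an empty vector, and HA-RB(245-255), a plasmid for HA-tagged RB residues 245-255, and one label field calls this library a control while its title names the construct, so the title was followed. The RBN pair was EV(RBN), its empty vector, and HA-RBN, a plasmid for an HA-tagged insert given only as RBN. All 6 groups were 22RV1 cells transfected or infected, and the labels give no clone, dose or time. The siRNA and 245-255 pairs had IgG partners, which were not analysed here. No group has a replicate, so no test between conditions can be made, and each interval below covers counting error only. Peak lists cannot check the cell line's identity or how far RB1 was depleted.

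Each nucleosome wraps DNA around 2 copies each of H2A, H2B, H3 and H4, and H1 binds the linker DNA beside it. Cells make most histone protein while they copy their DNA, from gene arrays of which the cluster on chromosome 6 is the largest in humans. The replication-dependent genes have no introns in their histone-coding form, and their mRNAs end in a stem-loop instead of a poly(A) tail. NPAT, which gathers at these clusters in nuclear bodies, drives their transcription, and SLBP binds the stem-loop. Many H2A and H2B genes stand head to head and share a promoter, and an octamer element that recruits the OCT1 factor marks H2B promoters. RB acts upstream, since it restrains E2F, which drives the cyclin E genes, and cyclin E with CDK2 phosphorylates NPAT as S phase begins.

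The promoters below, from RefSeq (GRCh38.p14), are shown because they belong to the head-to-head sites of highest enrichment, or because they contrast with them. Each line gives the bases before the transcription start, 5′ to 3′ on the gene's strand, and capitals mark an octamer (ATTTGCAT), the CCAAT letters or the core of a TATA element, written TATAAA, on either strand. H2BC11 (chr6:27132796-27133045, minus strand) shares its upstream bases with H2AC11, and 5 of 6 libraries had a summit in them. H2BC13 (chr6:27807930-27808179, minus strand), head to head with H2AC13, held the summit of 1 library. H2BC4 (chr6:26123927-26124176, minus strand), head to head with H2AC6, held a summit in 2 libraries. H2BC17 (chr6:27893175-27893424, plus strand), head to head with H2AC17, held one in 3 libraries. H2BC5 (chr6:26157871-26158120, plus strand) and H4C8 (chr6:26285535-26285784, minus strand) held one in 2 libraries each. H2BC10 (chr6:26272681-26272930, plus strand) was chosen after its values were seen, as a gene with an octamer and with no summit in any library.
H2BC11: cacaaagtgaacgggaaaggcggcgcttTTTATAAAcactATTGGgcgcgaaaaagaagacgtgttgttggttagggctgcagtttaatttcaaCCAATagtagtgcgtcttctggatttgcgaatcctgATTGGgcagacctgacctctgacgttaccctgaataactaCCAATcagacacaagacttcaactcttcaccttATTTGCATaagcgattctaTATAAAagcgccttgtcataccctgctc
H2BC13: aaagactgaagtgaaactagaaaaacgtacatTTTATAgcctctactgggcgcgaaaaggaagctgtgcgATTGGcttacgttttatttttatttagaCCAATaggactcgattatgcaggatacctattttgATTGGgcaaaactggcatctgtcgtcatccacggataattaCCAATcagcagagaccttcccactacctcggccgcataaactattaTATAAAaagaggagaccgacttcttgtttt
H2BC4: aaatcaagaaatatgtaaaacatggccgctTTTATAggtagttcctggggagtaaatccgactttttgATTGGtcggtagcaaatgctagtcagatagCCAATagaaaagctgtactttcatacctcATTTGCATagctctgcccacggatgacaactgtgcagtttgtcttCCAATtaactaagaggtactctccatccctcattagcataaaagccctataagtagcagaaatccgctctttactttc
H2BC17: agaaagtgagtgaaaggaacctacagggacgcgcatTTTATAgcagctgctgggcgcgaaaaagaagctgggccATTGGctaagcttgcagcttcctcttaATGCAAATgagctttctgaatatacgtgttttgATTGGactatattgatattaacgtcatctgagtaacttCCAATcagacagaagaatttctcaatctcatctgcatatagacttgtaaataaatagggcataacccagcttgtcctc
H2BC5: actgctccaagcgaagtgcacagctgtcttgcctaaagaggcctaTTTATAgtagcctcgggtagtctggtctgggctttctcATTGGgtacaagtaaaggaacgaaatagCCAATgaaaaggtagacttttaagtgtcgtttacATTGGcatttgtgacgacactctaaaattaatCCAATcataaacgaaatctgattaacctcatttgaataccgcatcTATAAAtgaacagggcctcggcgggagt
H4C8: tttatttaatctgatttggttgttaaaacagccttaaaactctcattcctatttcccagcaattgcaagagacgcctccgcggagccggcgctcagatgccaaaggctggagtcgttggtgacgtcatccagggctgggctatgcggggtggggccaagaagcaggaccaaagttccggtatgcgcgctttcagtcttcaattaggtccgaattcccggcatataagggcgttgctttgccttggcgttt
H2BC10: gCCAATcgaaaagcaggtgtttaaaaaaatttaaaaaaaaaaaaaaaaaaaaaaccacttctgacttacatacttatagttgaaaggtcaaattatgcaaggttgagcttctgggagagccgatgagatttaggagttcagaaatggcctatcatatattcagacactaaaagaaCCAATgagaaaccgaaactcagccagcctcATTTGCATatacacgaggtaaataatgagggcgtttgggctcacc

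These lines show the promoter grammar of the cluster. The motifs were counted on both strands from 250 bases before to 50 bases after the start, in the 48 members with a RefSeq promoter entry (H4C1, H4C3, H2AC12, H3C11 and H3C12 are named only) and in 15842 protein-coding genes. The octamer ATTTGCAT was in 20 member promoters (41.7%) and in 1.7% of all promoters. It was in 11 of 14 H2B and 8 of 10 H2A promoters, in 1 of 8 H3 promoters and in none of the H1 and H4 promoters. The H3 match is the entry of H3C4, which has the same bases as that of H2AC7, so it counts that stretch again. Head-to-head partners share the same stretch, so an H2A gene often carries the octamer of its H2B neighbour. CCAAT was in 41 member promoters (85.4%) against 36.4% of all, and every member promoter without it was that of an H4 gene (7 of 10). TATAAA was in 31 (64.6%) against 9.63% of all. TTTGGCGC, the only E2F-type motif searched, was in none of the 48 and in 0.89% of all. Other forms of the E2F motif were not searched, so this count does not show that E2F sites are absent. Of the promoters printed, that of H4C8 holds none of these motifs and held summits, and that of H2BC10 holds the octamer and CCAAT and held none. A match is a description of letters only.

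What was measured at each gene was the stack of DNA fragments at a peak summit. The deposited fold enrichment and p-value of each peak together give the number of fragments at its summit and the caller's local background. Enrichment here is that fragment number over the library's commonest background, which was 0.413 and 0.539 fragments per base in the siRNA pair, 0.187 and 0.25 in the 245-255 pair and 0.367 and 0.634 in the RBN pair, control first. The lists held between 21666 peaks (control siRNA) and 252425 (HA-RBN). In the 4 lists with an IgG partner the intervals were very wide (median 18225 to 83581 bp) and covered 93.7% to 97.8% of the cluster window, and each interval lists 1 summit. The RB1 siRNA list, for example, covered all 32 genes of the first group with a single interval of 370784 bp, whose only summit was beside H3C1 and H4C1. A member without a summit in these 4 lists therefore cannot be read as unbound, although the summit of its interval, which the caller places at the highest stack, limits how high it stood. In the RBN pair intervals were narrow (median 450 and 522 bp) and covered 6.95% and 10.3% of the window. The authors' own values at member summits were also of different size in the lists of the 2 kinds. Their fold enrichment was 1.33 to 3.84 and their −log10 q at most 2.49 in the 4 lists with an IgG partner, against 2.2 to 10 and up to 50.3 in the RBN pair. In the 4 wide lists the −log10 q was listed at 0 for 3 of 5, 3 of 5, 6 of 9 and 6 of 12 member summits. No member summit of the RBN pair had a listed value of 0.

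Summits were listed at few histone genes in the 4 wide lists and at most of them in the RBN pair. A summit within 1 kb of either gene end was found at 10 of 53 members in the control siRNA (18.9%, against 28.1% of all protein-coding genes) and at 10 in RB1 siRNA (18.9% against 33.5%). The 245-255 pair had one at 15 members for the vector (28.3% against 45.4%) and at 18 for HA-RB(245-255) (34% against 45.5%). The RBN pair had one at 39 members for the vector (73.6% against 60.2%) and at 44 for HA-RBN (83% against 73.4%). The members thus lay below the background of all genes in the 4 wide lists and above it in the RBN pair. Between 33 and 39 members per wide list sat inside an interval whose summit was elsewhere, against 2 and 3 in the RBN pair. The window also holds 19 other protein-coding genes, of which 2, 3, 5, 6, 9 and 13 had a summit in the same order of libraries. Of 6902 other genes not longer than the longest member, 18.1%, 22.7%, 35.3%, 34.6%, 56.1% and 67.2% had a summit in the same order. The members' shares were near these in the control siRNA and HA-RB(245-255). They were lower than these in RB1 siRNA and EV(245-255) and higher in the RBN pair. Genes of at most 1 kb had smaller shares than the members. Of 480 other genes of at most 1 kb, a group chosen after the data were seen, 6.46% to 16% had a summit in the wide lists, 27.1% in EV(RBN) and 37.1% in HA-RBN. Several members share a summit, and the 44 members of HA-RBN had 32 distinct best summits.

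**Figure D1:**
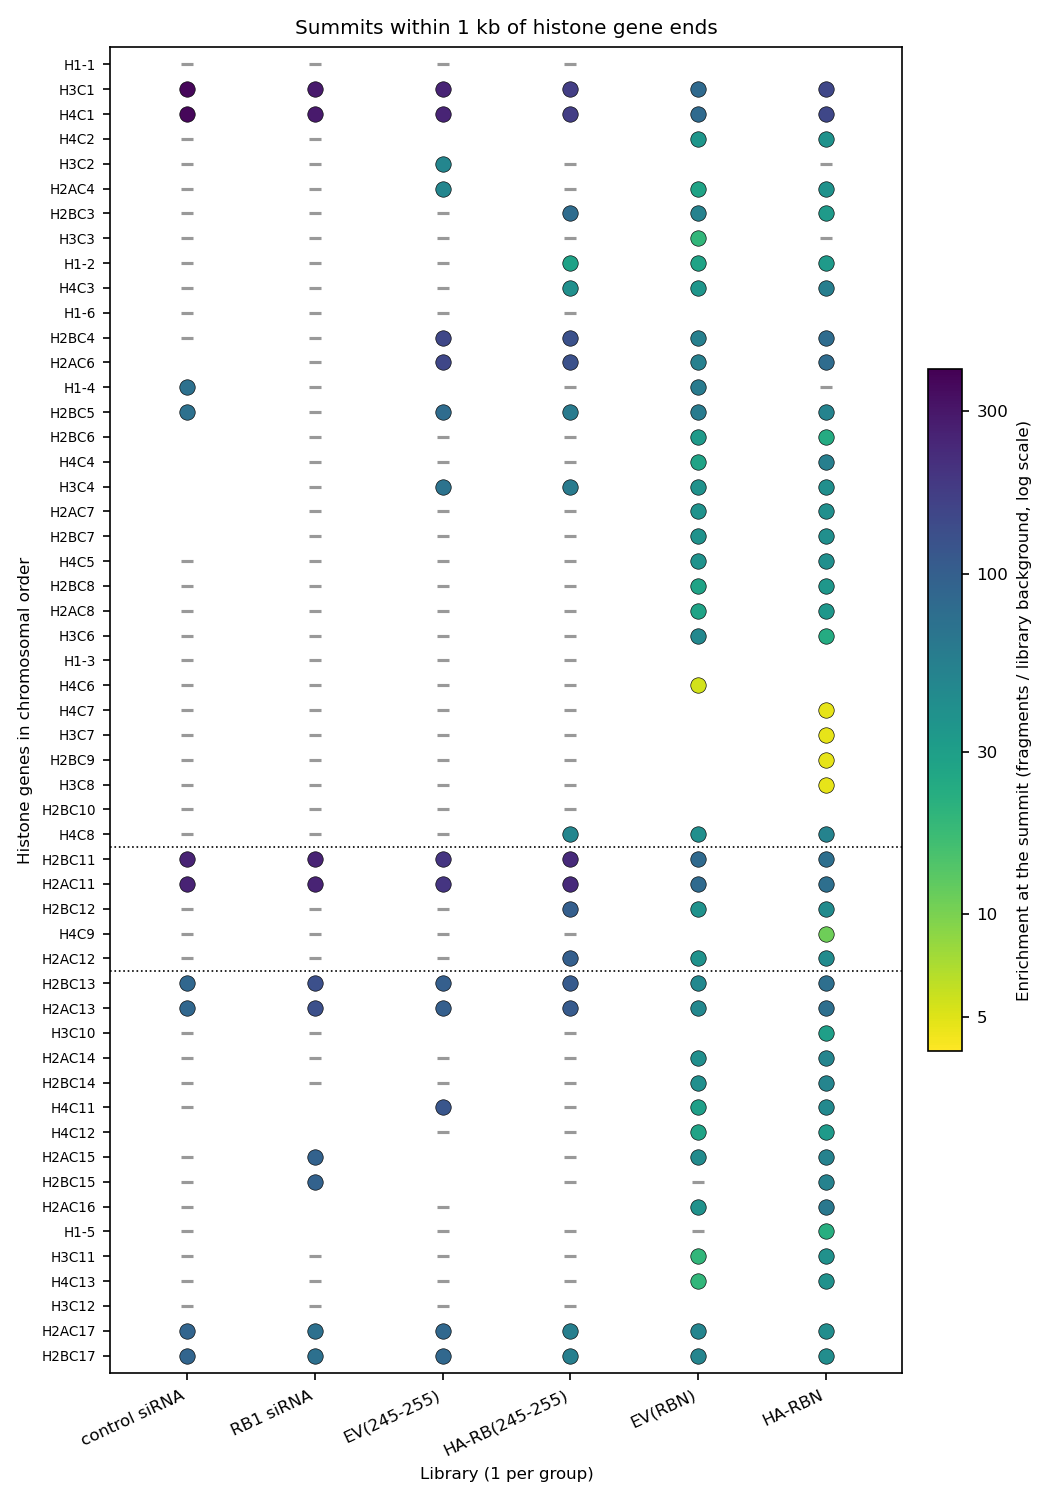
Summits at the 53 histone genes (rows, in chromosomal order, dotted lines between the 3 groups) in the 6 libraries (columns). A circle is a summit within 1 kb of a gene end, coloured by enrichment on a log scale, a grey dash a gene inside an interval whose summit is elsewhere, and a blank no interval. Summits fill most of the RBN columns (39 and 44 genes), and 8 genes have one in all 6 columns.

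Among strong summits the members' share was above the background of all genes in the RBN pair and in HA-RB(245-255). With at least 20 fragments required, 35 members of 53 (66%) had a summit in HA-RBN, where 18.4% of all genes had one. The other protein-coding genes of the window had 2 of 19 in that library (10.5%). In EV(RBN) 8 members passed (15.1%) against 2.84% of all genes, and in HA-RB(245-255) 11 (20.8%) against 12.8%. The share was near the background in the other 3 lists, with 10 members (18.9%) against 17% in the control siRNA, 10 (18.9%) against 21.5% in RB1 siRNA, and 7 (13.2%) against 13.2% in EV(245-255). Members share summits, so these counts rest on fewer summits. Those numbered 5 and 5 in the siRNA pair, 4 and 6 in the 245-255 pair, and 4 and 23 in the RBN pair, control first.

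**Figure D2:**
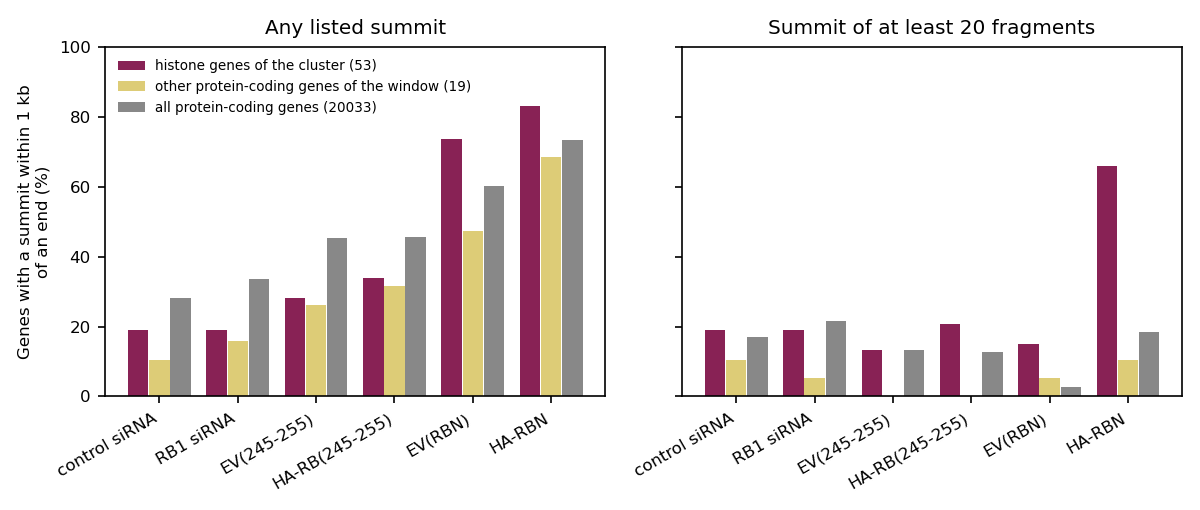
Share of genes with a summit within 1 kb of an end (y axis, percent) in each library (x axis), for any listed summit (left) and for summits of at least 20 fragments (right). Bars are the 53 histone genes, the 19 other protein-coding genes of the window and all 20033 genes. The histone bar for HA-RBN on the right stands at 66% beside 18.4% for all genes.

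Where a member summit was listed, it stood above most summits at other gene ends. The median over member summits was 37 fragments for the control siRNA, 70 with the siRNA against RB1, 19 and 17.5 in the 245-255 pair (vector first), and 13 and 25 in the RBN pair. Over all summits at gene ends the medians were 24, 26, 10, 10, 4 and 8 fragments in that order. Of the member summits, 5 of 5, 5 of 5, 8 of 9, 10 of 12, 30 of 31 and 28 of 33 lay above the median of all gene-end summits of their library. The highest member summit ranked 105th of 16493 in HA-RBN and 121st of 13066 in EV(RBN), so the cluster did not hold the top of any list.

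**Figure D3:**
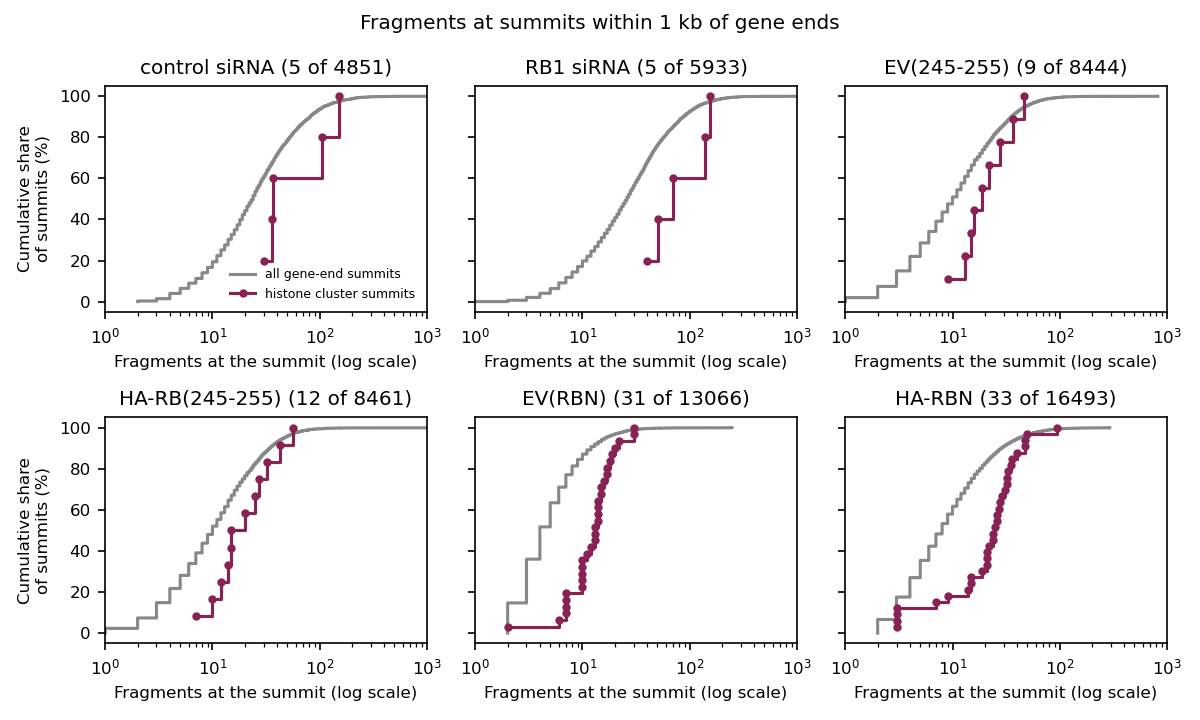
Cumulative share of summits (y axis, percent) against fragments at the summit (x axis, log scale) in each library, for all summits within 1 kb of a gene end (grey) and for those of the histone cluster (purple points). The purple curves lie to the right of the grey ones, with medians of 13 against 4 fragments in EV(RBN) and 25 against 8 in HA-RBN.

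Summits within 500 bp of each other were merged into 43 sites, of which 14 served several genes, 4 were listed in all 6 libraries and 28 in the RBN pair only. The 4 constant sites involve 8 genes, namely H3C1, H4C1, H2BC11, H2AC11, H2BC13, H2AC13, H2AC17 and H2BC17. All but the first are head-to-head H2A and H2B pairs.

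The site of H2BC11 and H2AC11 had the highest median enrichment over the 6 libraries, 213. H2BC11 (27132316-27132795) and H2AC11 (27133043-27133535) encode an H2B and an H2A protein, and their starts are 247 bp apart. The summit carried 105 fragments for the control siRNA and 138 with the siRNA against RB1. It carried 37 for EV(245-255) and 57 for its construct, then 30 for EV(RBN) and 48 for HA-RBN. Enrichment was 254, 256, 197, 228, 81.8 and 75.7 in that order. The medians over all gene-end summits were 58.1, 48.3, 53.4, 40, 10.9 and 12.6, so lower RBN values were not particular to this site. The authors' fold enrichment at the site ran the other way, with 2.72, 3.4, 2.58, 3.84, 8.36 and 7.04. In 5 libraries the summit lay between the starts, 9 to 110 bases before the start of H2BC11, inside the sequence printed above. In HA-RBN it lay over the H2BC11 gene at 27132603.

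The site of H3C1 and H4C1 followed, with a median enrichment of 211. H3C1 (26020451-26020958) and H4C1 (26021649-26022050) encode an H3 and an H4 protein, and the summit fell between them, from 26021454 to 26021610. It carried 152 fragments in the control siRNA (95% Poisson interval 129 to 178), 156 with the siRNA against RB1, 47 and 43 in the 245-255 pair (vector first), and 30 and 95 in the RBN pair. In 4 of the 6 libraries no other member site stood higher or as high, the exceptions being HA-RB(245-255), where H2BC11 and H2AC11 had 57, and EV(RBN), where the same pair also had 30.

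The other sites listed in every library were lower. At H2BC13 and H2AC13 (27807479-27807929 and 27808173-27808667) the fragments were 36, 70, 19, 27, 17 and 48 in the order of libraries above. At H2AC17 and H2BC17 (27892699-27893185 and 27893425-27893891) they were 37, 40, 16, 14, 18 and 27. Their promoters differ in that H2BC17 has the octamer and H2BC13 does not. In the 4 lists with an IgG partner the authors' −log10 q was 0 at H2AC17 with H2BC17. At H2BC13 with H2AC13 it was 0.0589 in HA-RB(245-255) and 0 in the other wide lists.

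The other 6 of the 10 sites with the highest median enrichment were missing from some wide lists, counted as 0 there. H2BC4 and H2AC6, a head-to-head pair with a median enrichment of 66.7 (65.1 at H2AC17 and H2BC17), had 28 and 32 fragments in the 245-255 pair and 20 and 50 in the RBN pair. H2BC5, which starts downstream of the linker histone gene H1-4, had 30 in the control siRNA, 15 in both libraries of the 245-255 pair, and 22 and 32 in the RBN pair. The remaining 4 were listed in HA-RB(245-255) and the RBN pair. H4C8 had 12, 15 and 32 fragments there, H2BC12 with H2AC12 had 25, 14 and 28, H4C3 had 10, 13 and 36, and H2BC3 had 20, 19 and 21. In the siRNA pair these 4 sites lie inside intervals whose summits were elsewhere.

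In both RBN libraries the linker histone genes had the smallest share of genes with a summit. H1 proteins compact the fibre between nucleosomes. A summit was at 2 of 6 H1 genes in each RBN library (33.3%), against 60.2% of all genes in EV(RBN) and 73.4% in HA-RBN. One was at 1 H1 gene in the control siRNA and in HA-RB(245-255), and at none in RB1 siRNA and EV(245-255). All genes had 28.1% to 45.5% in these 4 wide lists. H1-2 had 10 fragments in EV(RBN) and 21 in HA-RBN. H1-4 shared the H2BC5 summit in the control siRNA and EV(RBN), H1-5 had 14 fragments in HA-RBN alone, and H1-1, H1-3 and H1-6, a testis-type H1, had no summit in any library.

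In the RBN pair H2A was the family listed in full. All 11 H2A genes had a summit in both RBN libraries, with 10 to 30 fragments (median 15) in EV(RBN) and 22 to 50 (median 31) in HA-RBN. Of the 14 H2B genes, 11 had one in EV(RBN) (78.6%) and 13 in HA-RBN (92.9%), with medians of 17 and 28 fragments. All protein-coding genes had 60.2% and 73.4% in these libraries. Many of the H2A and H2B summits are shared. H2AC14 with H2BC14 had 15 and 31 fragments, and H2AC16, which stands alone, had 14 and 40. H2AC15 with H2BC15 had 51 in RB1 siRNA and 33 in HA-RBN, while in EV(RBN) H2AC15 had 16 at another place. In the control siRNA that pair lay in an interval whose highest stack was 37, so no stack there exceeded that number. H2BC10 was the H2B gene with no summit in any library.

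In the RBN pair the H4 genes were listed more often than the H3 genes. H4 summits were at 10 of 12 genes in EV(RBN) (83.3%, against 60.2% of all genes), with a median of 12 fragments. They were at 11 in HA-RBN (91.7% against 73.4%), with a median of 26. H4C4 had 10 and 35, H4C5 14 and 26, H4C11 11 and 29, and H4C2 13 and 24. H3 summits were at 5 of 10 genes in EV(RBN) and 7 in HA-RBN, with medians of 14 and 19 fragments. These shares of 50% and 70% are not above those of all genes. H3C6 had 17 and 15, and H3C12 was listed nowhere. In the 4 wide lists H3 and H4 summits were at 1 to 3 genes per family (8.33% to 30%), against 28.1% to 45.5% of all genes. In the siRNA pair they were only at H3C1 and H4C1.

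One stretch inside the first group stood low in the RBN pair. It runs from H1-3 to H2BC10 (26234212-26273412), holds 7 genes (H1-3, H4C6, H4C7, H3C7, H2BC9, H3C8 and H2BC10) and was singled out after its values were seen. EV(RBN) had a summit of 2 fragments at H4C6, and HA-RBN had summits of 3 fragments at H4C7, H3C7, H2BC9 and H3C8, with nothing higher at any of the 7 genes. Neighbours on both sides were higher in those libraries, with 17 and 15 fragments at H3C6 and 15 and 32 at H4C8. All 7 genes lay inside an interval whose highest stack was 8 fragments in EV(245-255) and 12 in HA-RB(245-255). Both intervals also cover the neighbour H3C6, so these 2 lists do not set the stretch apart. In the siRNA pair the intervals over the 7 genes peaked at 42 and 156 fragments far from the stretch, which sets no close limit. Of these genes H2BC9 and H2BC10 carry both the octamer and CCAAT. Whether reads from near-identical histone copies were kept or dropped by the alignment is not given in the sources used here, so its part in any single gene's value was not tested.

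In HA-RBN few member summits sat in the bases just before a transcription start. Among members with a known strand and a summit within 1 kb of the start, the median distance was −134 bp (7 genes) and −124 (8) in the siRNA pair, −106 (12) and −49.5 (14) in the 245-255 pair, and −20.5 (32) and 99.5 (38) in the RBN pair, control first. Positive values lie downstream of the start, in some cases past the end of the gene. In the 250 bases before the start, with the start base itself counted, lay 13 of 32 member summits in EV(RBN) (40.6%) and 1 of 38 in HA-RBN (2.63%). The EV(RBN) summit of H2BC7 lay on that start base. Other protein-coding genes had 30.3% and 28.1% there in the same libraries. In HA-RBN 65.8% of these members had their summit downstream of the start, against 44.5% of other genes. The head-to-head pairs show the same layout. Of pairs within 1 kb, the best summit lay between the starts at 3 of 8 in EV(RBN) and at 0 of 9 in HA-RBN, where every one lay over one of the genes. Neighbouring genes share summits, these windows were chosen after the distances were seen, and no test was made.

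**Figure D4:**
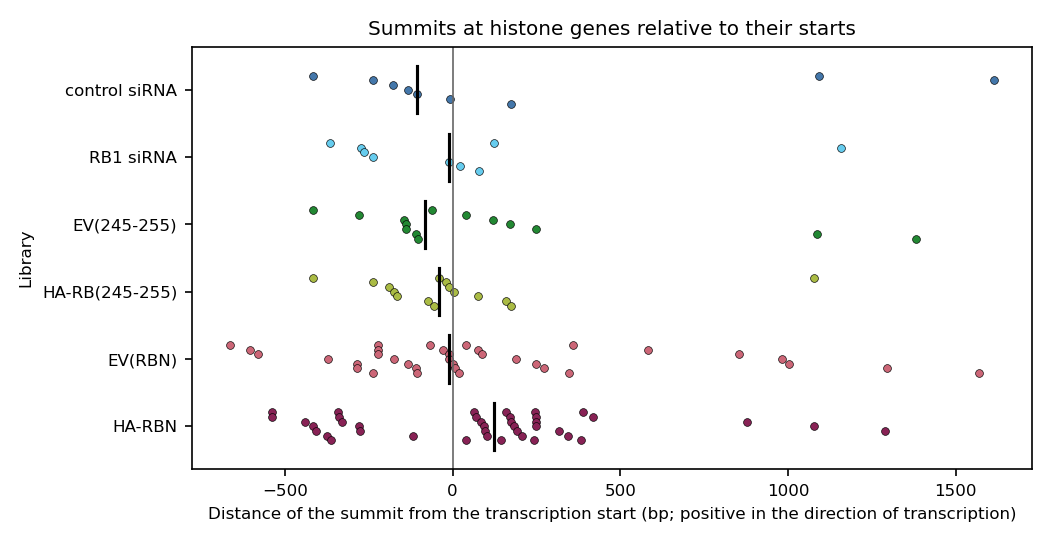
Distance of each member's best summit from its transcription start (x axis, bp, positive in the direction of transcription) in each library (rows). Each point is a gene with a known strand, heights within a row are spread for legibility, and the black bar is the median. In HA-RBN the points leave a gap just before the start, with 1 summit in the 250 bases there.

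The first comparison asks whether an siRNA against RB1 went with another level at the histone genes. A shared site had summits within 500 bp in both libraries and at least 20 fragments together, and its log2 ratio of enrichment is given relative to the median of all shared gene-end summits, with a call at more than 1 log2 unit. All 8 members with a summit in both lists had a shared site, 4 sites in all. H2BC13 with H2AC13 went from 36 to 70 fragments, a ratio of 0.70 (95% interval 0.10 to 1.32). H2BC11 with H2AC11 went from 105 to 138, a ratio of 0.13 (−0.25 to 0.51). H2AC17 with H2BC17 had −0.15 (−0.83 to 0.53) and H3C1 with H4C1 −0.23 (−0.56 to 0.11). The H2BC13 site alone had an interval clear of 0, and the H3C1 site, for all its height, stayed within counting error. No member site was called, against 1.4% higher and 0.731% lower (2.13% in all) of the 3010 shared gene ends, which had an SD of 0.409. Their median before centring was −0.12. H2AC15 and H2BC15 were listed in RB1 siRNA alone, and H1-4 and H2BC5 in the control alone. That is 3.77% of members each way, against 13.6% and 8.17% of all genes.

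In the pair HA-RB(245-255) against EV(245-255), 12 members shared 7 sites. H2BC11 with H2AC11 went from 37 to 57 fragments, a ratio of 0.68 (0.06 to 1.32). H2BC13 with H2AC13 went from 19 to 27, a ratio of 0.57 (−0.33 to 1.49), and H3C4 from 13 to 15, a ratio of 0.27 (−0.91 to 1.46). At the low end were H2BC5 with 15 fragments in both (0.06, −1.08 to 1.19), H3C1 with H4C1 with 47 and 43 (−0.07, −0.70 to 0.56) and H2AC17 with H2BC17 with 16 and 14 (−0.13, −1.28 to 0.99). The 7 sites had a median of 0.25, with 5 above the median of all gene ends and 2 below. None was called, against 2.01% higher and 2.16% lower (4.17% in all) of 3336 shared gene ends. All gene ends had a median of −0.47 before centring, and without centring the member median was −0.22. Listed in HA-RB(245-255) alone were H2BC3, H1-2, H4C3, H4C8, H2BC12 and H2AC12, and in EV(245-255) alone H3C2, H2AC4 and H4C11. These are 11.3% and 5.66% of members, against 14.2% and 14.1% of all genes.

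The RBN pair gave the widest view, with 23 shared sites that served 33 of the 36 members listed in both libraries. H2BC8, H2AC8 and H2AC15 had summits in both at places too far apart to be shared. HA-RBN had more fragments at 22 of 23 sites, and all shared gene ends had a median log2 ratio of enrichment of 0.68 before centring. Relative to that median 18 member sites lay below and 5 above, and the member median was −0.40. No member site was called higher, against 4.61% of 4015 shared gene ends, and 3 of 23 were called lower, against 3.11% (7.72% in either direction). The SD of all shared gene ends was 0.555.

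The sites called lower were H3C6, H2BC3 and H2BC6. H3C6, an H3 gene (26224178-26227473), had 17 fragments in EV(RBN) and 15 in HA-RBN, a ratio of −1.65 (−2.76 to −0.56). Its summits lay at different positions, 26224184 and 26223802. With sharing within 250 bp H3C6 was not a shared site, and 2 member sites were past 1 log2 unit. H2BC3 (26043227-26043713) had 19 and 21, a ratio of −1.33 (−2.30 to −0.35). H2BC6 (26183761-26184230) had 12 and 15, a ratio of −1.15 (−2.35 to 0.07), so its interval reaches 0. All 3 calls rest on the centring, without which the ratios were −0.97, −0.65 and −0.47, while H3C11 with H4C13 (1.05) and H4C4 (1.02) passed in the other direction. With no fragment minimum H2BC6 was at −0.96, and at a minimum of 40 fragments neither H3C6 nor H2BC6 was tested. These 3 sites thus had much the same number of fragments in both libraries. H2BC5 (−0.93, −1.76 to −0.08) and H2BC11 with H2AC11 (−0.80, −1.48 to −0.09) were not called but had intervals below 0. At the other end H3C11 with H4C13 went from 7 to 25 fragments (0.36, −0.89 to 1.82), H4C4 from 10 to 35 (0.33, −0.71 to 1.51), and H3C1 with H4C1 from 30 to 95 (0.19, −0.42 to 0.83). Each of these intervals spans 0.

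The direction of the RBN shift rests on the centring. Without it, on enrichment over each library's background alone, the member median was 0.28, so the members stood higher in HA-RBN but by less than gene ends in general. A comparison added after the data were seen took the 2973 shared gene ends with 7 to 30 control fragments, the range of the member sites. Against these the member median was −0.28. Levels within that range were not matched. Listed in HA-RBN alone were H4C7, H3C7, H2BC9, H3C8, H4C9, H3C10, H2BC15 and H1-5, and in EV(RBN) alone H3C3, H1-4 and H4C6. These are 15.1% and 5.66% of members, against 20.4% and 7.2% of all genes. Several of these had 2 or 3 fragments.

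**Figure D5:**
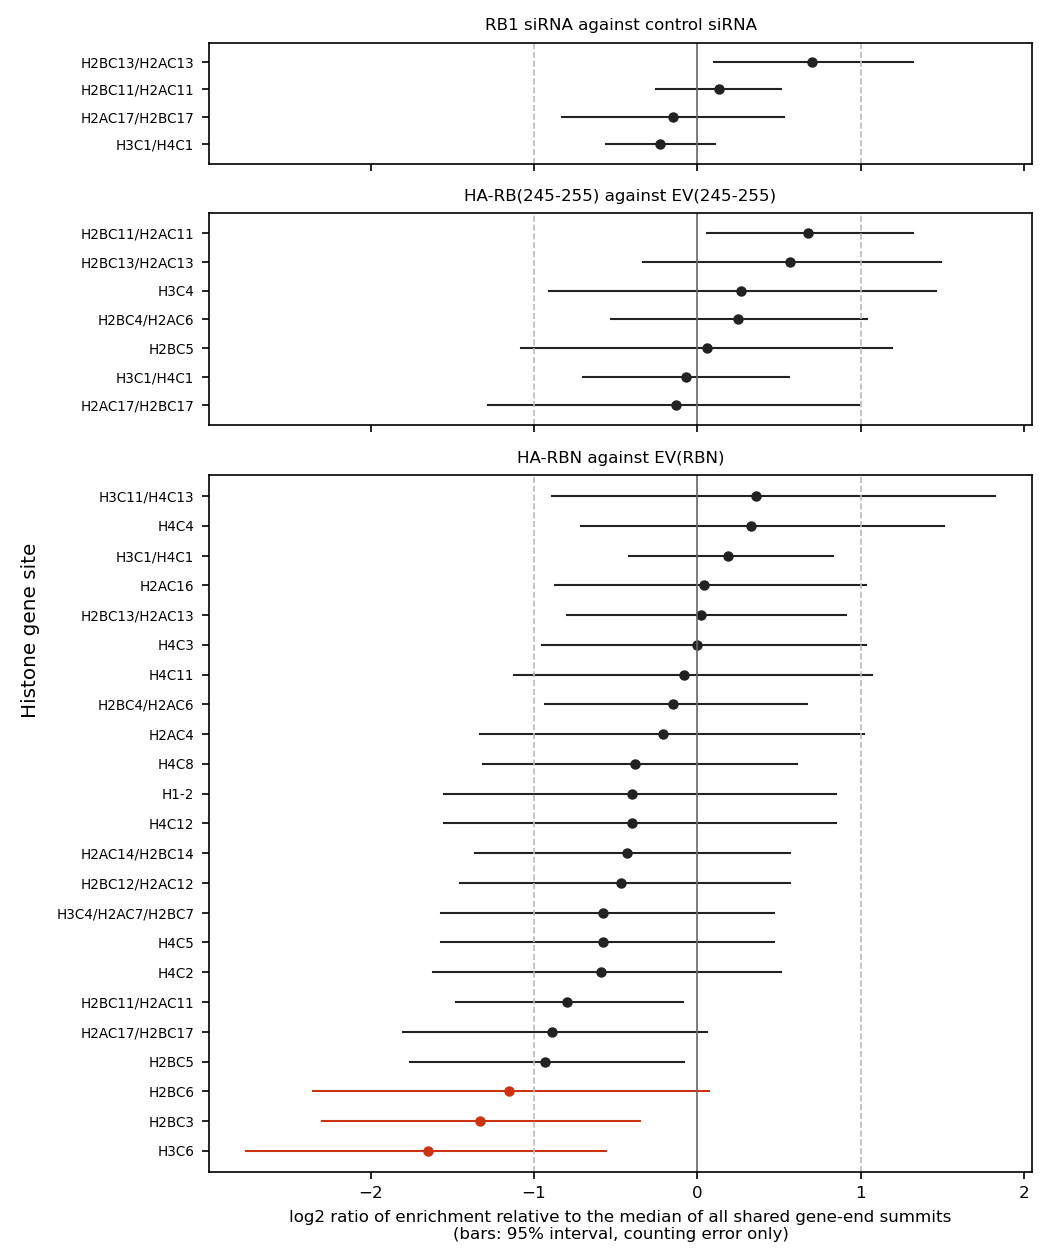
Log2 ratio of enrichment at each histone site shared by a pair (x axis), relative to the median of all shared gene-end summits, with 95% intervals for counting error (bars). Dashed lines mark 1 log2 unit, and red marks sites past it. In the RBN pair 18 of 23 sites lie left of 0 and 3 are past −1, while the other pairs have no site past the line.

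Genes for the machinery that serves the histone genes were listed more often than genes in general. Of 22 regulators of histone genes, 12, 12, 18, 16, 19 and 21 had a summit in the 6 libraries in order, which is 54.5%, 54.5%, 81.8%, 72.7%, 86.4% and 95.5%, above the share of all genes in each. Where listed, they had a median of 39 fragments in the control siRNA, 50.5 with the siRNA against RB1, 23.5 and 34.5 in the 245-255 pair, and 8 and 20 in the RBN pair. The cluster genes, each by its best summit, had medians of 37, 70, 19, 25, 14 and 26.5 in the same order, so the lists differed in no constant direction. The 4 regulators of highest median enrichment follow. SLBP, the stem-loop binding protein, had 448 and 464 fragments in the siRNA pair, 75 and 69 in the 245-255 pair, and 27 and 143 in the RBN pair. NPAT had 117, 127, 58, 54, 14 and 35 in the same order. CASP8AP2, a partner of NPAT in histone locus bodies, had 199, 214, 63, 68, 15 and 63, and POU2F1, which encodes the octamer factor OCT1, had 165, 163, 75, 67, 21 and 67. In the 4 wide lists these 4 stood above the medians of the cluster, but they were picked as the highest of the 22. At the other end CPSF1, LSM11 and POU2AF1 had a median enrichment of 0, with a missing summit counted as 0.

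Chaperones that carry the proteins to chromatin were listed too. Of 15 chaperone genes 11, 12, 11, 12, 13 and 14 had a summit, which is 73.3%, 80%, 73.3%, 80%, 86.7% and 93.3%. All genes had 28.1%, 33.5%, 45.4%, 45.5%, 60.2% and 73.4%. ASF1B, an H3 and H4 chaperone, had 155, 152, 32, 38, 16 and 51 fragments. CHAF1A, a subunit of the chromatin assembly factor CAF-1, had 69, 93, 51, 44, 9 and 23. The chaperones named here were picked as the highest of the 15 by median enrichment. In EV(RBN) all chaperones with a summit had a median of 5 fragments, the same as all genes with one. The cluster genes, each by its best summit, had a median of 14 there. NASP, another H3 and H4 chaperone, had 91, 107, 19, 27, 26 and 54, and NAP1L1, a carrier of H2A and H2B, had 76, 85, 38, 29, 16 and 55.

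Histone genes elsewhere in the genome were also compared. Of 15 matched genes outside the window on the list of replication-dependent histones, 9, 8, 7, 3, 14 and 12 had a summit, which is 60%, 53.3%, 46.7%, 20%, 93.3% and 80%. The share was below that of all genes in HA-RB(245-255) (45.5%), near it in EV(245-255) (45.4%) and above it in the other libraries. H4C14 had 376 and 328 fragments in the siRNA pair, 93 and 105 in the 245-255 pair, and 73 and 278 in the RBN pair, above every member in every library. Its near-identical copy H4C15 had 377, 329, 92, no summit, 49 and 273. Reads of these copies may not be separable, so both values are uncertain. H2AC19 and H3C15 shared summits of 163 and 167 in the siRNA pair and 36 and 134 in the RBN pair, with none in the 245-255 pair.

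Replacement histone genes are expressed outside S phase as well. Of 14 such genes 7, 8, 8, 7, 9 and 10 had a summit. The shares of 50%, 57.1%, 57.1% and 50% in the wide lists stand beside 28.1%, 33.5%, 45.4% and 45.5% of all genes, and 64.3% and 71.4% in the RBN pair are near the 60.2% and 73.4% of all genes. H2AZ2, which encodes an H2A.Z protein, had 194, 232, 71, 65, 19 and 92 fragments. H3-3A, which encodes H3.3, had 93, 106, 37, 32, 8 and 28, and H2AX, whose phosphorylation marks DNA breaks, had 60, 79, 39, 45, 14 and 32. H2AZ1 had 42, 61, 34, 33, 10 and 33. In EV(RBN) none of the 14 replacement histone genes reached 20 fragments, where 8 of 53 cluster genes (15.1%) and 2.84% of all genes did. In the control siRNA 7 of 14 did (50%), against 18.9% of the cluster and 17% of all genes. That list has wide intervals with 1 summit each, and 36 cluster genes lay inside one whose summit was elsewhere, which limits the cluster's share.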

How the data were processed

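ChIP-seq peak lists of 6 immunoprecipitated libraries were used, 1 per group, and no samples were pooled. The submitters' processing notes name MACS2 2.1.0, Bowtie 1.1.2, Trimmomatic 0.33, bcl2fastq 2.17 and the build hg38, without settings. The deposited lists hold each peak's fold enrichment, a ratio over local background, and its −log10 p-value and −log10 q-value, all by the authors. Genes and promoters came from RefSeq tables of GRCh38.p14.

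Fragments at a summit were solved from fold, (pileup + 1) / (background + 1), and the Poisson p-value. In the 4 lists with an IgG partner 1 fragment was worth 0.0166, 0.0176, 0.0434 and 0.0512 of the scaled pileup. Several solutions fitted 0.109% to 16% of peaks per list, and 4 of the 95 summits at member sites, and the lowest was taken. The recovery was tested on simulated data. Reads carried no molecular identifiers that are stated, so intervals (95%, exact Poisson or conditional binomial) cover counting error only. Python 3.11.15, numpy 2.4.6, pandas 2.3.3, scipy 1.17.1 and matplotlib 3.10.9 were used.

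The members, the gene lists (2 of 17 symbols of 1 list, H2AW and H2BU1, were not matched) and the alternatives were chosen with earlier results of these data known. Named were members with a summit in all or no libraries, the 10 sites of highest median enrichment, the 3 highest and 3 lowest ratios per pair with every called site, and up to 4 genes per list. Others are named by family or after their values were seen. Alternatives changed the window, the peak threshold, the merging and sharing distance, the fragment minimum and the centring.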

Additional observations from a re-analysis of the deposited data

How the results depend on the processing

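With a −log10 q of at least 5 no member kept a summit in the 4 lists with an IgG partner (0 in each), and 22 did in EV(RBN). Of all peaks in those lists, 0.222% to 0.614% reach that value, and 1.88% in EV(RBN). With intervals in place of summits the counts were 47 in the control siRNA, 49 with the siRNA against RB1, and 51 and 53 in the 245-255 pair, which is how their wide intervals were built. With at least 20 fragments they were 7 in EV(245-255), 11 in HA-RB(245-255) and 8 in EV(RBN). Without centring the median ratio was −0.22 for the 245-255 pair and 0.28 for the RBN pair, and the uncentred values are the enrichment ratios themselves. The other 60 values for counts, sites and medians stayed within 1.5 times or within the spread of shared gene ends. A count does not say which sites: the RBN pair had 3 sites past 1 log2 unit, all lower, and 2 without centring, both higher. No paired analysis was possible because each group has 1 library, and no library could be left out for the same reason. Depth limits single ratios: H1-2, with 10 against 21 fragments, has an interval of −1.55 to 0.85, and H3C4 in the 245-255 pair one of −0.91 to 1.46.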

Other observations

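The cluster shares its window with 100 tRNA genes, transcribed by RNA polymerase III, which were looked at after the data were seen. Bases within 1 kb of a tRNA gene, and not of a histone gene, made up 8.92% of the window, and those within 1 kb of a histone gene end 5.38%. Summits at tRNA genes numbered 2 of 11 in the control siRNA, 5 of 18 in RB1 siRNA, 9 of 39 in EV(245-255), 14 of 57 in HA-RB(245-255), 48 of 195 in EV(RBN) and 50 of 266 in HA-RBN. Those at histone genes numbered 5, 5, 9, 12, 31 and 33 in the same order. Of the 40 summits of at least 20 fragments in HA-RBN, 23 were at histone genes, 13 at tRNA genes and 4 elsewhere. Such summits came at 19 per Mb in the window and 1.27 per Mb over chromosome 6 in HA-RBN, and at 3.33 and 0.205 in EV(RBN). The tRNA site listed in every library was at TRL-CAG1-7, a leucine tRNA gene, with 42, 40, 23, 13, 17 and 71 fragments. TRX-CAT1-3 had 17, 18, 28 and 49 in the 245-255 and RBN pairs, and TRA-AGC11-1 had 24, 19, 13, 22 and 28 in all libraries but the control siRNA. These levels overlap those of the histone sites in the same libraries.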
